A study of Mus musculus with 6 samples.

Results

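The Notch genes described here are 4 receptors (Notch1, Notch2, Notch3, Notch4), 3 ligands (Dll4, Jag1, Jag2) and 3 target genes (Hes1, Hey1, Heyl). They were taken by name, through Entrez gene IDs, and all 10 were among the 18822 genes with values. RNA had been sequenced from glomeruli, the capillary tufts that filter blood in the kidney, of diabetic C57BL/6J mice with kidney disease, 3 libraries from mice lacking proteinase 3 (PR3 KO) and 3 from wild-type mice (WT). Proteinase 3, encoded by Prtn3, is a serine protease of neutrophil granules. Both groups were diabetic, so no comparison with healthy glomeruli was made, and the labels used here do not give how diabetes was induced, the age of the mice or whether the deletion was confined to a cell type. They also do not say that each library came from its own animal, so the p-values rest on the spread among these libraries, and that spread may be technical.

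Levels are FPKM, fragments scaled to transcript length and to the mapped fragments of the library, as deposited by the authors, so genes can be compared per length. Fold changes are log2(FPKM + 1), PR3 KO minus WT, a scale that understates the change of low genes. They were tested with limma over the 12388 genes averaging 1 FPKM or more, and a gene is said to have risen or fallen where its Benjamini-Hochberg adjusted p over all of these was under 0.05. Over these genes 41.1% fell and 11.7% rose, and the median log2 fold change was -0.26. After median-of-ratios scaling, which sets the typical gene of each library equal, 25.1% fell and 22.5% rose, with a median of -0.03. The lowest FPKM steps of short olfactory receptor genes put the depth at about 13300000 to 15300000 fragments per library, a rough estimate carried by 3 to 7 genes in each. WT 2 stood apart from the other WT libraries: Spearman correlations were 0.986 to 0.988 within PR3 KO, 0.967 to 0.988 within WT and 0.882 to 0.961 between genotypes. Prtn3 read 0.14, 0 and 0.07 FPKM in the PR3 KO libraries, against 0.46, 0.21 and 0.22 FPKM in the WT libraries, too low for more than a weak check of the labels.

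Notch receptors are single-pass membrane proteins that are switched on by ligands on a neighbouring cell. Ligand binding exposes the receptor to the protease ADAM10 and then to the gamma-secretase complex, which frees an intracellular fragment. This fragment enters the nucleus, joins the DNA-binding protein RBPJ and a Mastermind coactivator, and turns on repressor genes of the Hes and Hey families. Notch4 and Dll4 are known chiefly from endothelial cells, and Notch3 and Heyl from smooth muscle cells and pericytes of vessels. In the kidney the pathway patterns the developing nephron, and its activity in podocytes, which wrap the capillaries of the glomerulus, is known from studies of glomerular disease.

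The RefSeq promoter table (GRCm38.p6) held 7 of the 10 genes, the receptors and ligands. The 250 bases before the start are printed for the endothelial pair Notch4 and Dll4 and for Notch1, which all fell in PR3 KO. They are also printed for Notch3, which did not pass the test and whose change was not resolved. The start is the one that table uses, which for Notch3, Notch4 and Jag2 lies inside the annotated span of the gene. Capitals mark GGGCGG, the GC box bound by Sp1-type factors, and CAGGAA, which holds the core bound by ETS factors, on either strand. The 2 motifs did not overlap each other.
Notch4: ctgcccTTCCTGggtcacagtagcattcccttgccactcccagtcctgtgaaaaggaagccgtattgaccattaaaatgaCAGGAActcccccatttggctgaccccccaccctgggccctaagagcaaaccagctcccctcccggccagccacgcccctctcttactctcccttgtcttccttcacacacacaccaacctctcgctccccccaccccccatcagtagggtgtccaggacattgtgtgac
Dll4: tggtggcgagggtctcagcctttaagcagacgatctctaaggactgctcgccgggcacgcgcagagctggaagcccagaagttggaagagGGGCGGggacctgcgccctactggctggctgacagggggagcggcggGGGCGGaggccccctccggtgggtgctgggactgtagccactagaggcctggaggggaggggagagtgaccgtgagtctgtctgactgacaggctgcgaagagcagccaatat
Notch1: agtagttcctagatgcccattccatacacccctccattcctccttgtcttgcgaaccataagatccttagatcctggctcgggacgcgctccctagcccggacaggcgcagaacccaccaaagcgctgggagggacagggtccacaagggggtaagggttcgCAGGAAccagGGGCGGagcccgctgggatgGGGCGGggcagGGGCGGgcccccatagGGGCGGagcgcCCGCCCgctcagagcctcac
Notch3: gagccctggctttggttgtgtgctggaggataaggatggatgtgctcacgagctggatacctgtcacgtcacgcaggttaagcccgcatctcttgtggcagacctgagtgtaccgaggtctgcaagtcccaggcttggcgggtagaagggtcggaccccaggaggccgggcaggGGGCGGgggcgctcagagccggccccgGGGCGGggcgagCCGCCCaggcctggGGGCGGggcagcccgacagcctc

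The Notch4 window lies at chr17:34564045-34564294 on the plus strand, that of Dll4 at chr2:119325534-119325783 on the plus strand, that of Notch1 at chr2:26503823-26504072 on the minus strand and that of Notch3 at chr17:32166891-32167140 on the minus strand. The Notch4 window held no GC box and 2 CAGGAA matches, and its GC content was 58.4%. The Dll4 window held 2 GC boxes at 65.6% GC, the Notch1 window 5 GC boxes and 1 CAGGAA match at 66.0% GC, and the Notch3 window 4 GC boxes at 68.8% GC. Over the 7 promoters, GGGCGG was present in 5 and CAGGAA in 2, against 32.7% and 25.7% of the 32851 promoters of the same length in the table. TGGGAA, the core read by RBPJ, was in none of the 7 windows and in 21.6% of all. CACNAG, the N box bound by Hes repressors, was in 4 of the 7 and in 36.7% of all. GC boxes were found in the windows of Notch1, Dll4 and Jag2, which fell, and of Notch2 and Notch3, which did not pass. They were absent from those of Notch4 and Jag1, which fell. A link between these motifs and the changes was not tested.

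Of the 9 Notch genes past the filter, 7 fell in PR3 KO and 0 rose, which is 77.8% against the 41.1% of all tested genes that fell. The median of their log2 fold changes was -0.80, which lies -0.54 from the median over all genes. The targets Hey1 and Hes1 fell most, then the ligand Jag2 and the receptors Notch1 and Notch4, while Notch2 and Notch3 did not pass. The same 7 genes were those whose PR3 KO libraries all lay below all WT libraries, which held for 49.1% of all tested genes. No Notch gene lay wholly above WT, against 16.0% of all tested genes. With median-of-ratios scaling 5 fell and 0 rose, where 25.1% and 22.5% of all tested genes did. Without PR3 KO 1, PR3 KO 3, WT 1 or WT 2 the count of falls was 5 too, where 3837 to 4764 of the 12388 tested genes fell. In a bulk sample, fewer cells of a type and less RNA per cell cannot be told apart.

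**Figure D1:**
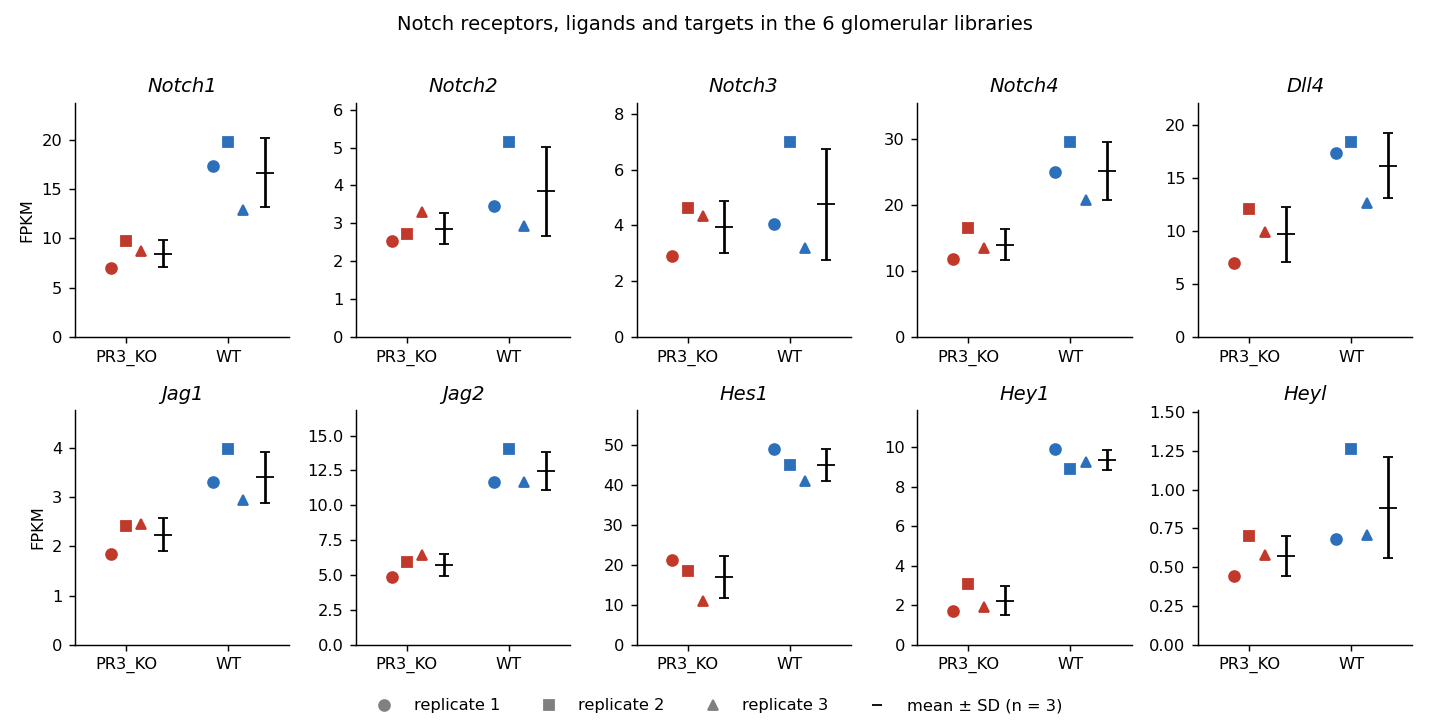
FPKM of each Notch gene (y axis, from 0) in the 3 PR3 KO libraries (red, left) and the 3 WT libraries (blue, right) of glomeruli, with the mean ± SD beside each group. The PR3 KO points of Hey1 lie between 1.71 and 3.08 and the WT points between 8.90 and 9.89, while those of Notch2, Notch3 and Heyl overlap.

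Among the receptors, Notch4 was the most abundant in each of the 6 libraries, followed by Notch1, Notch3 and Notch2. Notch4, the receptor best known from vascular endothelium, was at 11.89, 16.55 and 13.49 FPKM in PR3 KO 1, 2 and 3, against 24.97, 29.58 and 20.83 FPKM in WT 1, 2 and 3. All PR3 KO libraries were below all WT libraries. It averaged 14.0 ± 2.37 FPKM in PR3 KO and 25.1 ± 4.38 FPKM in WT (SD, n = 3 each) and fell by 0.80 on the log2 scale (SE 0.16, limma adjusted p = 0.00467).

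Notch1, a receptor of endothelial, epithelial and blood cells, was at 6.94, 9.71 and 8.69 FPKM in PR3 KO 1, 2 and 3, against 17.33, 19.77 and 12.89 FPKM in WT. The groups did not overlap, and the mean of 8.45 ± 1.40 FPKM in PR3 KO was 50.7% of the 16.7 ± 3.49 FPKM in WT (SD, n = 3 each). Its log2 fold change was -0.89 (SE 0.17, limma adjusted p = 0.00433). Notch1 and Notch4 followed each other across the 6 libraries, with a Pearson correlation of 0.993 of log2(FPKM + 1), a description in which both genotypes are included.

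Notch3, a receptor of vascular smooth muscle cells and pericytes, was at 2.90, 4.64 and 4.33 FPKM in PR3 KO, against 4.06, 7.0 and 3.20 FPKM in WT. WT 2 was the highest library and WT 3 lay below PR3 KO 2 and 3. The log2 fold change was -0.18, with a 95% interval of limma from -0.76 to 0.40 (limma adjusted p = 0.562), and 0.09 without WT 2 (limma adjusted p = 0.716), so that neither a fall nor a rise of this size was resolved. Notch2, a receptor needed in the developing nephron, was at 2.52, 2.73 and 3.31 FPKM in PR3 KO, against 3.45, 5.15 and 2.92 FPKM in WT. PR3 KO 3 was above WT 3, and WT 2 was again the highest. Its log2 fold change was -0.31, with a 95% interval from -0.73 to 0.11 (limma adjusted p = 0.182), and -0.12 without WT 2 (limma adjusted p = 0.508).

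Among the ligands the order of levels was Dll4, Jag2, then Jag1 in each of the 6 libraries. Dll4, a ligand of arterial and sprouting endothelium, was at 6.98, 12.09 and 9.93 FPKM in PR3 KO 1, 2 and 3, against 17.35, 18.40 and 12.66 FPKM in WT. The groups did not overlap, though PR3 KO 2 came within 1 FPKM of WT 3. Dll4 averaged 9.67 ± 2.57 FPKM in PR3 KO and 16.1 ± 3.06 FPKM in WT (SD, n = 3 each) and fell by 0.70 on the log2 scale (SE 0.20, limma adjusted p = 0.0225). This call was lost with median-of-ratios scaling (-0.45, limma adjusted p = 0.0770) and without PR3 KO 1 (-0.50, limma adjusted p = 0.0603), PR3 KO 3 (-0.73, limma adjusted p = 0.0510), WT 1 (-0.64, limma adjusted p = 0.0587) or WT 2 (-0.60, limma adjusted p = 0.0594).

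Jag2, a ligand of the Jagged type, was at 4.87, 5.91 and 6.41 FPKM in PR3 KO 1, 2 and 3, against 11.64, 14.00 and 11.69 FPKM in WT. The gap between the groups was wider than the range within either of them. Jag2 averaged 5.73 ± 0.786 FPKM in PR3 KO and 12.4 ± 1.35 FPKM in WT (SD, n = 3 each) and fell by 1.0 on the log2 scale (SE 0.13, limma adjusted p = 0.00102). Jag1, the other Jagged ligand, was at 1.85, 2.41 and 2.46 FPKM in PR3 KO, against 3.31, 3.98 and 2.95 FPKM in WT. It fell by 0.44 on the log2 scale (SE 0.14, limma adjusted p = 0.0289), with no overlap between the groups. The call of Jag1 was lost with median-of-ratios scaling (-0.25, limma adjusted p = 0.118) and without PR3 KO 1 (-0.35, limma adjusted p = 0.0993), PR3 KO 2 (-0.48, limma adjusted p = 0.0514), PR3 KO 3 (-0.49, limma adjusted p = 0.0501), WT 1 (-0.46, limma adjusted p = 0.0562) or WT 2 (-0.35, limma adjusted p = 0.0696).

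Among the targets, Hey1 and Hes1 differed most and Heyl was not resolved. Hey1, a repressor induced by Notch in endothelial and mural cells, was at 1.71, 3.08 and 1.88 FPKM in PR3 KO 1, 2 and 3, against 9.89, 8.90 and 9.26 FPKM in WT. The WT values lay close together, and the highest PR3 KO value was far below them. Hey1 averaged 2.22 ± 0.747 FPKM in PR3 KO, 23.8% of the 9.35 ± 0.501 FPKM in WT (SD, n = 3 each), with a log2 fold change of -1.71 (SE 0.16, limma adjusted p = 0.000735). These levels correspond to about 63.2 to 113 fragments in the PR3 KO libraries and 319 to 334 in the WT libraries, if the estimated depth and the longest annotated transcript of 2423 nucleotides apply.

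Hes1, the repressor that carries much of the Notch response in epithelial cells and that other signals also induce, was at 21.21, 18.41 and 11.01 FPKM in PR3 KO 1, 2 and 3, against 48.88, 44.96 and 40.93 FPKM in WT. PR3 KO 3 was the lowest library, at about the same distance below PR3 KO 2 as the whole range of the WT libraries. Hes1 averaged 16.9 ± 5.27 FPKM in PR3 KO, 37.6% of the 44.9 ± 3.98 FPKM in WT (SD, n = 3 each), and its log2 fold change was -1.40 (SE 0.22, limma adjusted p = 0.00190). Heyl, a related repressor of vascular smooth muscle and a known target of Notch3, was at 0.44, 0.70 and 0.58 FPKM in PR3 KO, against 0.68, 1.26 and 0.71 FPKM in WT. PR3 KO 2 was above WT 1, and WT 2 stood above the rest. Heyl lay under the filter and had no limma test in the comparison of all genes (exact two-sided permutation p = 0.2, n = 3 each, where 0.1 is the smallest that 3 against 3 can give). About 30.5 to 86.1 fragments stand behind each of its values. Of the 10 genes, Notch1, Notch3 and Dll4 share exonic bases with annotated genes on the opposite strand and Notch2 with one on the same strand. Whether strand was used in counting is not given in the sources used here, so reads of these partners could be part of their values.

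Raw ratios of FPKM within a library do not move with that library's scaling, and 7 pairs of Notch genes were compared. The tests in the next paragraph used FPKM + 1, so those ratios can move with scaling where levels are low. The raw ratio of Jag2 over Jag1 was 2.63, 2.45 and 2.61 in PR3 KO 1, 2 and 3, against 3.52, 3.52 and 3.96 in WT. The balance of the Jagged ligands thus differed without overlap. Notch1 over Notch2 was 2.75, 3.56 and 2.63 in PR3 KO, against 5.02, 3.84 and 4.41 in WT, also without overlap. Hey1 over Hes1 was 0.0806, 0.167 and 0.171 in PR3 KO, against 0.202, 0.198 and 0.226 in WT.

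On the scale of log2(FPKM + 1), Jag2 over Jag1 differed by -0.56 and Notch1 over Notch2 by -0.59 (exact two-sided permutation p = 0.1 for each, the smallest that 3 against 3 can give, 0.175 adjusted over the 7 pairs). Hey1 over Hes1 differed by -0.30 on that scale (exact two-sided permutation p = 0.4), by -0.61 with a pseudocount of 0.1 and by -0.01 without PR3 KO 1, so its size rested on that library and on the pseudocount. Notch4 over Notch2 and Heyl over Hes1 differed by -0.49 and 1.16 (exact two-sided permutation p = 0.1 for each), with overlap of the raw ratios. Heyl over Hes1 is set in part by the pseudocount, since Heyl lies under 1 FPKM in all libraries but WT 2. Dll4 over Jag1 and Notch3 over Notch2 differed by -0.25 and 0.13 (exact two-sided permutation p = 0.2 and 0.6). No pair passed after adjustment, and with 3 against 3 none could.

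**Figure D2:**
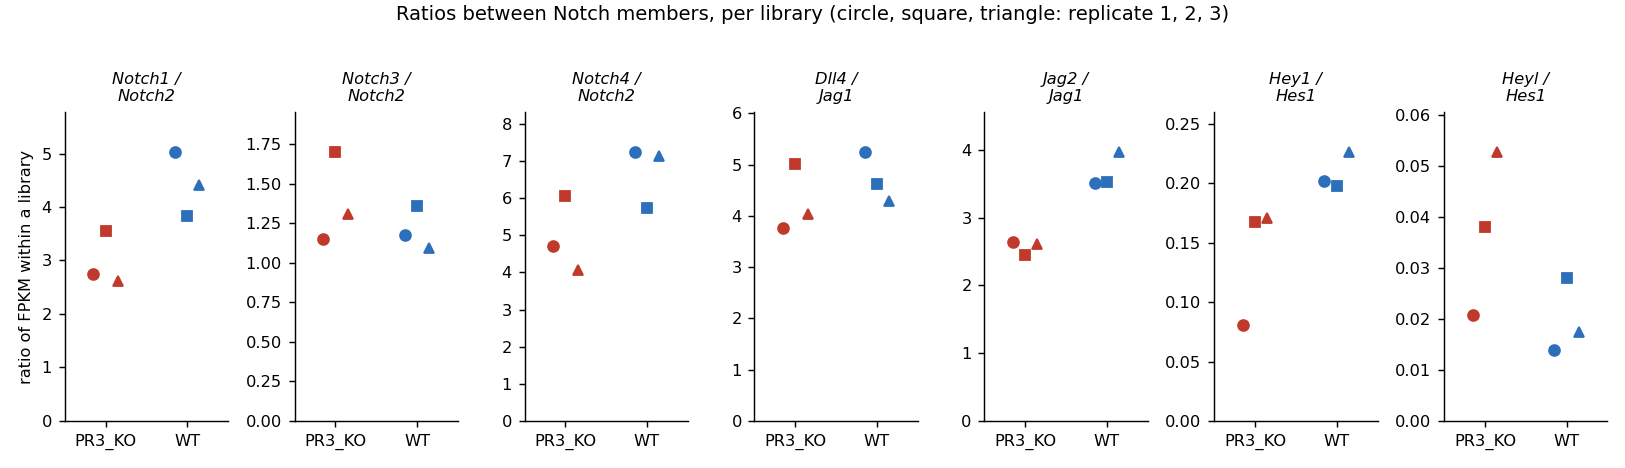
Ratio of the FPKM of 2 Notch genes within a library (y axis, from 0), 1 panel per pair, PR3 KO (red, left) and WT (blue, right), with the symbol giving the replicate. The ratios of Jag2 over Jag1 lie between 2.45 and 2.63 in PR3 KO and between 3.52 and 3.96 in WT.

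Many markers of glomerular endothelium, mesangium and podocytes fell, as most Notch genes did, whereas most markers of the proximal tubule rose. Of all tested genes 41.1% fell and 11.7% rose. All 20 markers of glomerular endothelium fell, with a median log2 fold change of -1.28, and their summed level was 1217 to 1698 FPKM in PR3 KO and 3373 to 4139 FPKM in WT. The endothelial adhesion gene Pecam1, for example, was at 71.05, 92.96 and 95.89 FPKM in PR3 KO, against 197.17, 249.11 and 203.73 FPKM in WT. Of 14 tested markers of mesangium and smooth muscle (15 listed), 9 fell and 0 rose, with sums of 228 to 377 FPKM in PR3 KO and 504 to 802 FPKM in WT. Of 15 podocyte markers 9 fell and 0 rose, with sums of 445 to 693 FPKM in PR3 KO and 813 to 1319 FPKM in WT.

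Tubular, parietal and blood cell markers were counted in the same way, where 41.1% of all tested genes fell and 11.7% rose. Of the lists in this paragraph, only that of macrophages held a larger share of falls than all tested genes. Only those of proximal tubule and parietal epithelium held a larger share of rises. Of 17 proximal tubule markers 15 rose and 0 fell, with sums of 53086 to 70269 FPKM in PR3 KO and 9518 to 25570 FPKM in WT. All 13 macrophage markers fell, with sums of 97.3 to 151 FPKM in PR3 KO and 673 to 1417 FPKM in WT. Of 10 parietal epithelium markers 5 rose and 4 fell (346 to 393 FPKM in PR3 KO and 214 to 273 FPKM in WT), and of 15 markers of loop, distal tubule and collecting duct 1 rose and 5 fell (4983 to 5593 FPKM in PR3 KO and 3908 to 4571 FPKM in WT). Of 5 tested lymphocyte markers (11 listed) 2 fell and 0 rose (12.6 to 17.9 FPKM in PR3 KO and 16.4 to 33.6 FPKM in WT), and of 6 erythroid markers 1 fell and 0 rose (697 to 2797 FPKM in PR3 KO and 1401 to 1742 FPKM in WT). No marker of these lists was at 0 in all libraries, and the defining genes of podocytes, endothelium and mesangium were present in every library, as with Nphs1 at 14.64 to 25.19 FPKM in PR3 KO and 25.99 to 41.19 FPKM in WT. The part of these cell types in the fall of the Notch genes was not tested.

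The Notch genes were also read against the endothelial markers, by dividing each library by the geometric mean of its 20 endothelial markers. On that scale 80.3% of all tested genes were higher in PR3 KO and 2.62% were lower, with a median of 0.89, as the endothelial markers fell more than most genes. Hey1 was still lower (-0.67, limma adjusted p = 0.00331), and it was the only 1 of the 9 tested Notch genes that was. Hes1, Jag2 and Notch1 were at -0.14, 0.17 and 0.31 and did not pass (limma adjusted p = 0.639, 0.260 and 0.0749). Notch4, Dll4, Jag1, Notch2 and Notch3 were higher relative to these markers (0.44, 0.52, 0.53, 0.71 and 0.89, limma adjusted p = 0.0179, 0.0127, 0.00283, 0.00134 and 0.000637). Scaled in the same way to markers of mesangium and smooth muscle, 2 of the 9 were lower (Hes1 and Hey1) and 0 higher, against 6.22% and 36.9% of all tested genes.

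**Figure D3:**
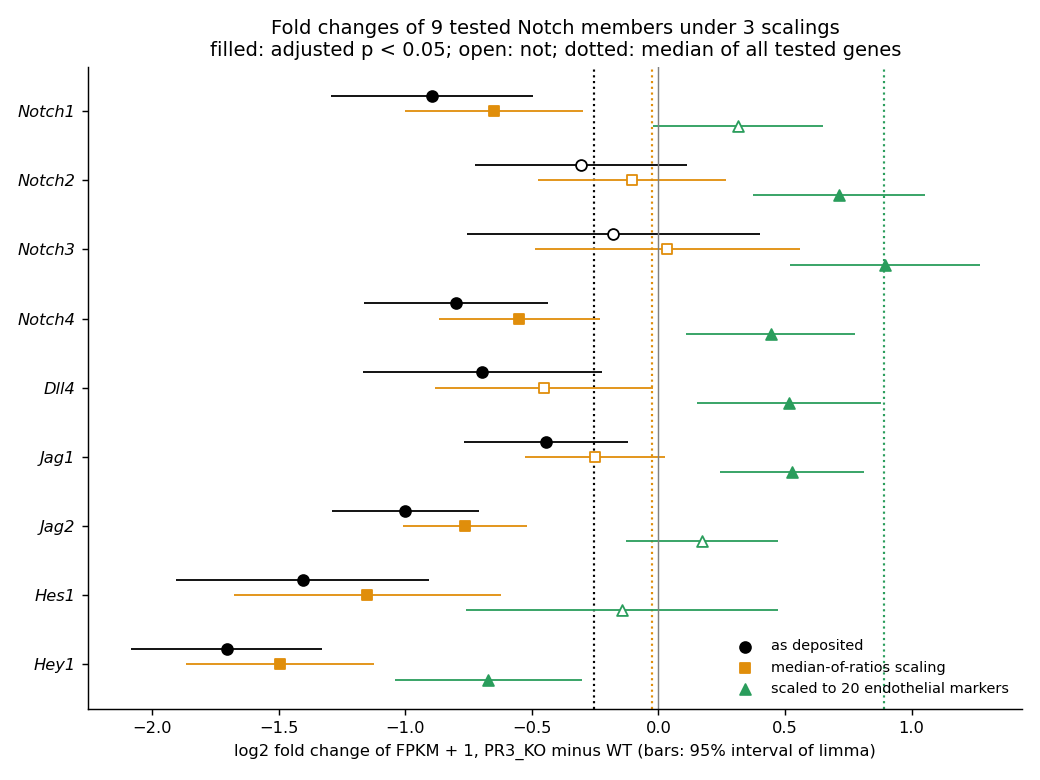
Log2 fold change, PR3 KO minus WT (x axis), of the 9 tested Notch genes (rows) as deposited (circles), after median-of-ratios scaling (squares) and after scaling to 20 endothelial markers (triangles), with 95% intervals of limma, filled symbols for adjusted p under 0.05 and dotted lines at the medians of all tested genes, -0.26, -0.03 and 0.89. Hey1 is the gene whose filled symbols lie below 0 on all 3 scales.

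**Figure D4:**
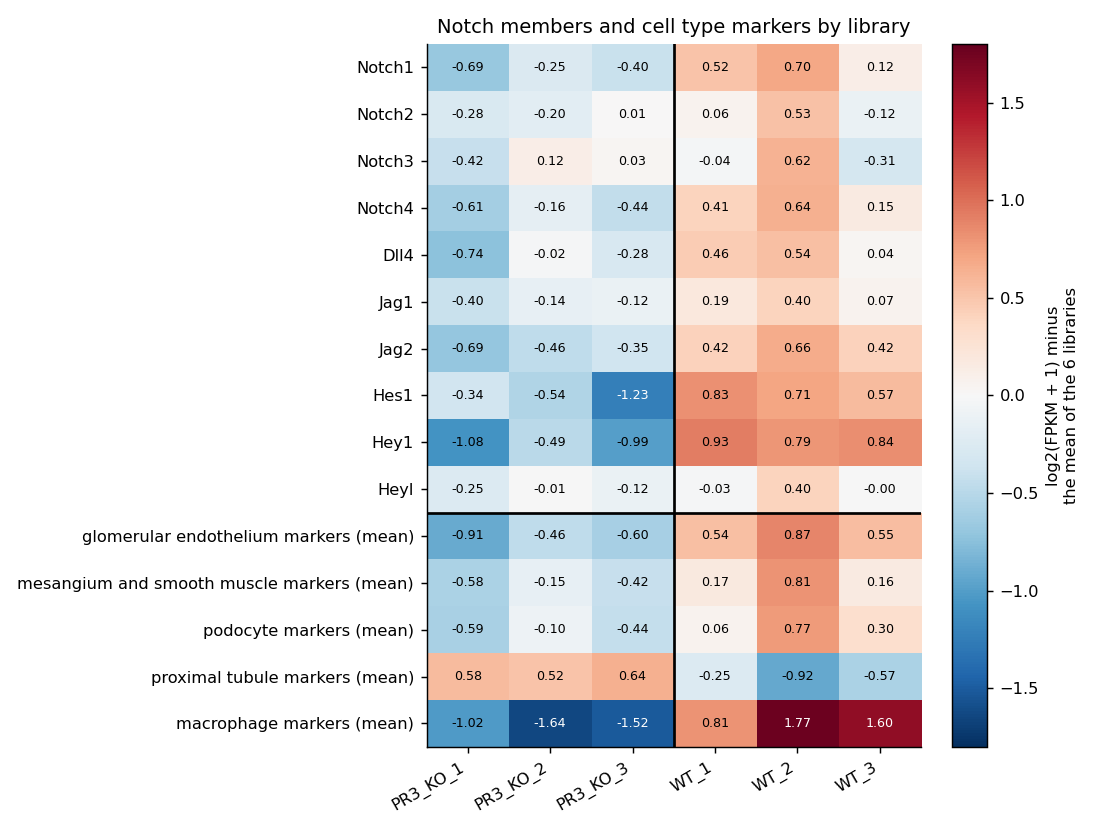
Log2(FPKM + 1) of each Notch gene and mean log2(FPKM + 1) of 5 marker lists (rows), minus the mean of the 6 libraries (colour and printed value), in PR3 KO libraries (left) and WT libraries (right). Of the 10 Notch genes 8 are highest in WT 2, as are the endothelial, mesangial, podocyte and macrophage markers, whereas Hes1 and Hey1 are highest in WT 1.

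The wider pathway was described from 69 further genes in 8 lists by role, of which 62 were tested. In all, 41 fell and 3 rose, which is 66.1% and 4.84% against 41.1% and 11.7% of all tested genes, and their median log2 fold change was -0.50 against -0.26. With median-of-ratios scaling 24 fell and 6 rose, where 25.1% and 22.5% of all tested genes did. The 7 genes under the filter were Dll3, Dlk2, Dner, Neurl1a, Dtx1, Hes5 and Hes7, and Hes5, a target well known from neural cells, was listed at 0 in all 6 libraries.

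Enzymes that glycosylate the receptors, and so tune which ligand they answer to, held some of the largest changes. The fringe gene Lfng was at 6.25, 8.28 and 5.93 FPKM in PR3 KO 1, 2 and 3, against 24.07, 32.16 and 29.36 FPKM in WT, and fell by 1.92 on the log2 scale (SE 0.15, limma adjusted p = 0.000598). A second fringe gene, Mfng, was at 6.34, 8.18 and 7.04 FPKM in PR3 KO, against 13.56, 20.69 and 19.45 FPKM in WT, and fell by 1.19 (limma adjusted p = 0.00131). For both genes the groups were far apart.

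The third fringe gene, Rfng, named after its values were seen, was at 30.16, 34.60 and 31.74 FPKM in PR3 KO, against 28.04, 20.06 and 24.41 FPKM in WT, a rise of 0.41 (limma adjusted p = 0.0314). The 3 fringe genes thus did not move one way. The rise of Rfng was not past the threshold without PR3 KO 1, 2 or 3 (0.45, 0.36 and 0.42, limma adjusted p = 0.0537, 0.0968 and 0.0763) or without WT 2 or WT 3 (0.29 and 0.42, limma adjusted p = 0.0590 and 0.0662). Relative to endothelial markers, Lfng was still lower (-0.71, limma adjusted p = 0.00172) and Mfng was at 0.01. Of the 5 genes of this list 4 fell and 1 rose (80% and 20%, against 41.1% and 11.7% of all tested genes). With median-of-ratios scaling 2 fell and 1 rose, where 25.1% and 22.5% of all tested genes did. The others of this list were Pofut1 and Poglut1, which add O-fucose and O-glucose. Poglut1 fell by 0.51 on the log2 scale (limma adjusted p = 0.00767), a call lost with median-of-ratios scaling (-0.26, limma adjusted p = 0.0512).

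Of 5 tested ubiquitin ligases of the Neuralized and Mindbomb type (6 listed), 4 fell and 0 rose. This is 80% against the 41.1% of all tested genes that fell. With median-of-ratios scaling 3 fell and 0 rose, where 25.1% and 22.5% of all tested genes did. Neurl3, a Neuralized-like gene, was at 2.56, 3.15 and 3.94 FPKM in PR3 KO, against 12.46, 23.45 and 15.06 FPKM in WT. Its log2 fold change of -2.06 (SE 0.22, limma adjusted p = 0.000830) was the largest fall among the 62 further genes tested, and it was also lower relative to endothelial markers (-0.94, limma adjusted p = 0.000517). Mib1, which drives the uptake of bound ligands, and Neurl1b fell by 0.69 and 0.79 (limma adjusted p = 0.00178 and 0.00103). Of 2 tested further ligands (5 listed) 1 fell, which is 50% against 41.1% of all tested genes. Dll1, a Delta-type ligand, was at 2.70, 3.03 and 3.87 FPKM in PR3 KO, against 6.02, 5.90 and 4.89 FPKM in WT, and fell by 0.66 (SE 0.14, limma adjusted p = 0.00633).

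Of 10 genes of receptor cleavage, 4 fell and 2 rose, a share of falls (40.0%) near the 41.1% of all tested genes, and their median log2 fold change was -0.16 against -0.26. Adam17 and Adam10, the sheddases that cut Notch outside the membrane, fell by 1.04 and 0.88 (limma adjusted p = 0.000910 and 0.00120), and Psen2, a catalytic subunit of gamma-secretase, fell by 0.82 (limma adjusted p = 0.000935). Adam10 was at 13.39, 16.17 and 15.97 FPKM in PR3 KO, against 25.61, 32.08 and 28.58 FPKM in WT. The genes that rose, named after their values were seen, were Aph1c, a gamma-secretase subunit (0.62, limma adjusted p = 0.0186), and Furin, the convertase that processes the Notch precursor (0.43, limma adjusted p = 0.0339). Aph1c lost its call without PR3 KO 3 or WT 3 (0.61 and 0.57, limma adjusted p = 0.0547 and 0.0586). Furin lost its call without PR3 KO 2, PR3 KO 3, WT 2 or WT 3 (0.44, 0.36, 0.33 and 0.40, limma adjusted p = 0.0750, 0.116, 0.0626 and 0.0912) and with no filter (limma adjusted p = 0.0512). Aph1b, named as the close paralog of Aph1c, was at -0.28, near the median of all genes (limma adjusted p = 0.0437), and at -0.051 with median-of-ratios scaling (limma adjusted p = 0.696). The values of Aph1b and Aph1c are uncertain where reads were split between them.

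In the nuclear complex, Rbpj, the DNA-binding partner of all 4 receptors, was at 6.91, 7.64 and 7.68 FPKM in PR3 KO, against 9.16, 10.29 and 8.35 FPKM in WT. These did not overlap, but the log2 fold change of -0.28, near the median of all genes, did not pass (limma adjusted p = 0.0547), and it passed without WT 3 (-0.35, limma adjusted p = 0.0429). Of the 9 genes of this list 7 fell and 0 rose with the deposited scaling, which is 77.8% against the 41.1% of all tested genes that fell. Their median log2 fold change was -0.39 against -0.26. With median-of-ratios scaling 1 of the 9 fell, where 25.1% of all tested genes fell. Maml2, a Mastermind coactivator, fell by 1.17 (SE 0.17, limma adjusted p = 0.00143). Its relative Maml3 fell by 0.65 (limma adjusted p = 0.0268), a call lost with median-of-ratios scaling (-0.45, limma adjusted p = 0.0696) and without PR3 KO 1 (-0.50, limma adjusted p = 0.0892) or WT 2 (-0.47, limma adjusted p = 0.0507). The acetyltransferase Crebbp fell by 0.46 (limma adjusted p = 0.00950), a call lost with median-of-ratios scaling (-0.24, limma adjusted p = 0.0824).

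Of 12 corepressors 8 fell and 0 rose, which is 66.7% against the 41.1% of all tested genes that fell. With median-of-ratios scaling 3 fell and 0 rose, a share of falls near the 25.1% of all tested genes on that scale. The Groucho-type genes Tle1 and Tle4 fell by 0.99 and 0.70 (limma adjusted p = 0.00102 and 0.00166), and Ctbp2 by 0.77 (limma adjusted p = 0.00285). Of 9 tested negative regulators (10 listed) 5 fell and 0 rose, a share of falls of 55.6% against 41.1% of all tested genes. With median-of-ratios scaling 5 fell and 1 rose, where 25.1% and 22.5% of all tested genes did. Numb, which opposes Notch at the membrane, was at 23.66, 29.14 and 30.52 FPKM in PR3 KO, against 52.22, 62.06 and 52.51 FPKM in WT, and fell by 0.98 (limma adjusted p = 0.00109). Fbxw7, which marks the intracellular fragment for breakdown, and Nrarp, itself a Notch target, fell by 0.78 and 0.72 (limma adjusted p = 0.00171 and 0.00435). Genes that pass the signal on and genes that limit it were thus both among those that fell.

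Of 10 further tested targets (12 listed) 8 fell and 0 rose, which is 80% against the 41.1% of all tested genes that fell. With median-of-ratios scaling 6 fell and 1 rose, where 25.1% and 22.5% of all tested genes did. The semaphorin and VEGF co-receptor gene Nrp1 was at 57.07, 88.21 and 72.99 FPKM in PR3 KO, against 197.27, 237.15 and 184.70 FPKM in WT, with a log2 fold change of -1.51 (SE 0.18, limma adjusted p = 0.000913). The connexin gene Gja4 and the ephrin gene Efnb2 fell too, by log2 differences of -1.38 and -1.30 (limma adjusted p = 0.000684 and 0.00149). Relative to endothelial markers, Nrp1, Gja4 and Efnb2 were at -0.21, -0.12 and -0.02 and did not pass (limma adjusted p = 0.369, 0.522 and 0.919).

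**Figure D5:**
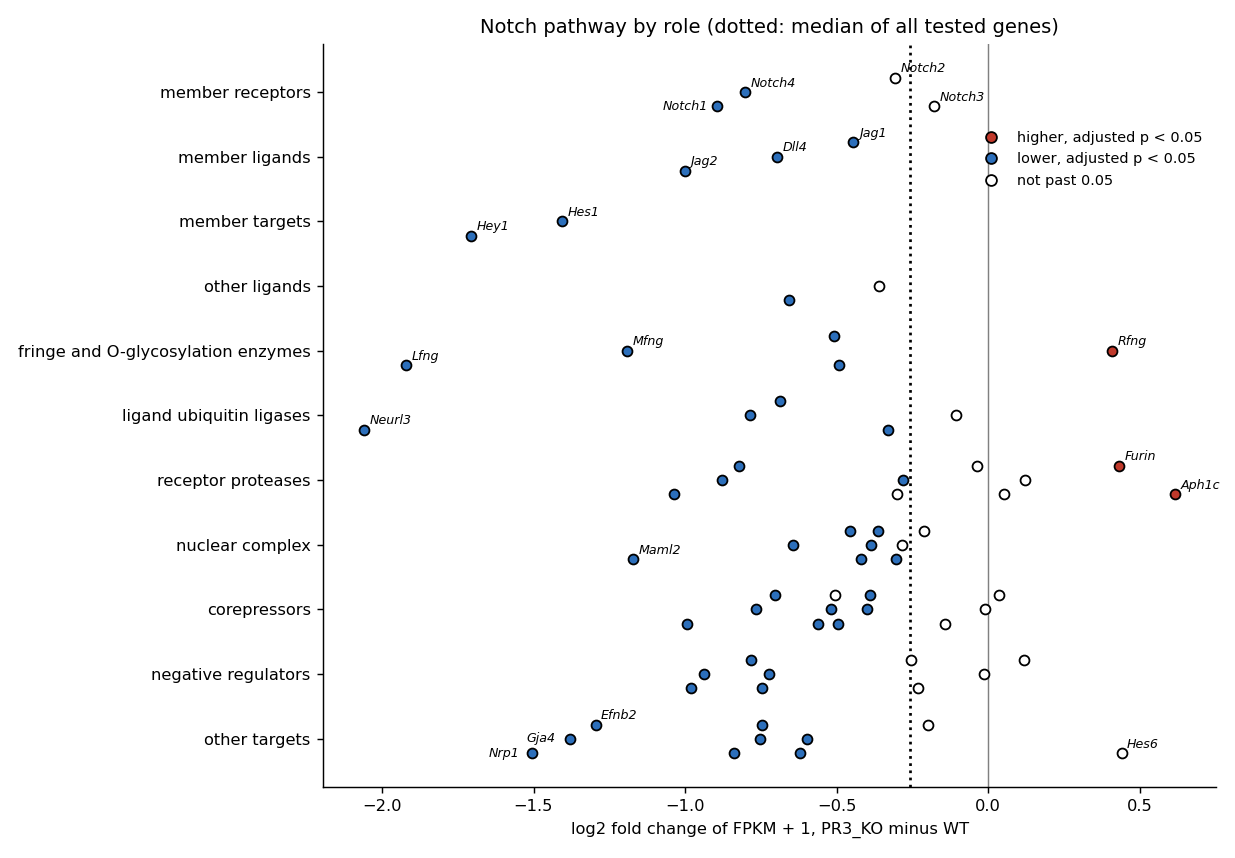
Log2 fold change, PR3 KO minus WT (x axis), of the tested Notch genes and 62 further pathway genes, 1 row per role, with higher calls in red, lower calls in blue and genes not past the threshold in white, and the median of all tested genes (-0.26) as a dotted line. Neurl3, Lfng and Hey1 lie farthest to the left, and Rfng, Furin and Aph1c are the calls to the right of 0.

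The genes most like each Notch gene were taken by Pearson correlation of log2(FPKM + 1) over the 6 libraries among 12057 genes. Predicted or unnamed genes and a few named ones, such as Xist and Ighm, were barred from the search. As both genotypes enter, many genes correlate highly: 2473 genes were above 0.95 with Jag2 and 47 with Notch3. The closest to Dll4 were Gba2, Esm1 and Tnpo1 (0.997, 0.997 and 0.995). Esm1 is a secreted product of endothelial tip cells. The closest to Jag2 were Numb, Hnrnpul2 and Pecam1 (0.999 each). The closest to Notch3 were Arhgef17, Dock5 and Anxa11 (0.994, 0.989 and 0.988), and to Notch2 they were P2ry2, Scmh1 and H2-T-ps (0.999, 0.995 and 0.993). Notch4 was followed by Fam53b, Smarcd3 and B3galnt2, Notch1 by Zbed4, Efr3b and Epb41l4a, Jag1 by Flna, Tmem43 and Uggt1, Hes1 by Ash2l, Tstd3 and Cir1 and Hey1 by Tm9sf3, Cul2 and Add3 (0.994 to 0.9999). Within the 9 Notch genes, correlations ran from 0.175 between Notch3 and Hes1 to 0.993 between Notch1 and Notch4.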

How the data were processed

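Total RNA from isolated glomeruli was extracted with Trizol, enriched for poly(A) RNA on oligo(dT) beads and read by DNBSEQ, per the labels' protocols. Bowtie2 and the build GRCm38.p6 are named in the submitters' processing notes. The values are FPKM per gene, deposited by the authors per the file headers with 2 decimals; no counting tool or strand setting is given in the sources used here. With no counts, no count model was run. Entrez IDs were matched to symbols, and log2(FPKM + 1) of genes averaging 1 FPKM or more was tested with limma 3.58.1 (trend, robust; R 4.3.3) with genotype as the only term, after a test on simulated data. Ratios and Heyl were tested by exact permutation, and the p-values of the ratios were adjusted by Benjamini-Hochberg (scipy 1.17.1). No label says that same-numbered libraries belong together, so the numbers were not taken as pairs. The genes, lists and tests were chosen with earlier results of these data known. Of each role list, up to 3 called genes with the smallest adjusted p were named, plus Rbpj and Prtn3. The alternatives were other pseudocounts, filters, scalings and moderation, a replicate block and leaving out each library. Promoter sequences are from RefSeq.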

Additional observations from a re-analysis of the deposited data

How the results depend on the processing

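Other pseudocounts, no filter or plain moderation changed no call of the 9 tested Notch genes; with the filter raised to 5 FPKM, Jag1, Notch2 and Notch3 were not tested and the other 6 kept their calls. With each library scaled to its mesangial markers, 2 Notch genes were lower; with endothelial scaling 1 was lower and 5 were higher. Of the 62 further pathway genes, 24 were lower and 6 higher with median-of-ratios scaling, 2 and 44 with endothelial scaling and 4 and 11 with mesangial scaling. Of all genes, 3113 were lower and 2789 higher with median-of-ratios scaling, 324 and 9949 with endothelial scaling and 771 and 4568 with mesangial scaling. The cause was not tested.

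With median-of-ratios scaling the log2 fold changes were 0.035 for Notch3, -0.45 for Dll4 and -0.25 for Jag1. With endothelial scaling they were 0.31 for Notch1, 0.71 for Notch2, 0.89 for Notch3, 0.44 for Notch4, 0.52 for Dll4, 0.53 for Jag1, 0.17 for Jag2 and -0.14 for Hes1. With mesangial scaling they were -0.19 for Notch1, 0.29 for Notch2, 0.45 for Notch3, -0.078 for Notch4, 0.0061 for Dll4, 0.11 for Jag1 and -0.32 for Jag2. Endothelial scaling also turned Dll1 (0.41), Mfng (0.0087), Poglut1 (0.70), Neurl1b (0.32), Mib1 (0.49), Adam17 (0.16), Psen2 (0.43), Adam10 (0.37), Crebbp (0.62), Maml3 (0.33), Tle1 (0.14), Tle4 (0.39), Ctbp2 (0.47), Numb (0.30), Fbxw7 (0.29), Nrarp (0.30) and Rbpj (0.89), and mesangial scaling turned Poglut1 (0.19), Crebbp (0.16) and Rbpj (0.40).

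Leaving out 1 library at a time, 5 to 7 Notch genes were lower and 0 higher, as were 29 to 40 and 0 to 3 further pathway genes and 3837 to 4764 and 917 to 1514 of all genes. The log2 fold change ranged from -1.06 to -0.77 for Notch1, -0.45 to -0.12 for Notch2, -0.38 to 0.086 for Notch3, -0.92 to -0.68 for Notch4, -0.86 to -0.50 for Dll4, -0.52 to -0.35 for Jag1, -1.07 to -0.91 for Jag2, -1.59 to -1.14 for Hes1 and -1.89 to -1.59 for Hey1. With the replicate number as a block, 7 Notch genes were lower and 0 higher, with 41 and 4 further pathway genes and 5143 and 1550 of all genes. Deviations of same-numbered libraries correlated at 0.0677, 0.270 and -0.0866, and those of differently numbered libraries at -0.260 to 0.322. Depth limits Heyl most.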
